A study of Mus musculus with 6 samples.

Results

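The hnRNP, SR protein, SF3 and Snrp genes code for the best known families of proteins that take part in splicing. These genes were compared here between wild-type and Eklf knockout fetal liver progenitors. A probe set is a group of short oligonucleotides whose readings give 1 signal. Members were genes with a symbol beginning with Hnrnp, Srsf, Sf3a, Sf3b or Snrp and at least 1 probe set annotated to them alone. This gave 47 genes of 18193 on the array, with 139 probe sets of 34945: 19 hnRNP genes with 58 probe sets, 10 SR protein genes with 33, 9 SF3 genes with 30 and 9 Snrp genes with 18. Another 16 probe sets that list a member gene together with other genes were left out, so Hnrnpa3, Snrpa, Snrpd1 and Snrpd2 are not among the members. Of the 139 probe sets 127, in 45 genes, were bright enough to be tested. The probe sets annotated to Srsf12 alone and to the brain-enriched gene Snrpn alone fell below the intensity filter.

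RNA came from early erythroid progenitors of fetal livers at embryonic day 13.5, 3 livers from wild-type C57BL/6 mice and 3 from Eklf -/- mice, and each sample was hybridised to 1 single-colour Affymetrix array. Both genotypes were treated alike: liver cells were stained with the dead-cell dye 7AAD and with antibodies to CD71 and Ter119, surface proteins that mark stages of red cell maturation, and were sorted by flow cytometry, with gates not given in the sources used here. Eklf (gene symbol Klf1) codes for a zinc finger protein of red cell precursors that binds CACCC boxes. The knockout is present in all cells of the embryo. The labels list both genotypes as C57BL/6 and trace the allele to targeting clones from a strain 129 library that were injected into C57BL/6 blastocysts, and the amount of 129 genome left around the allele is not given.

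Splicing starts when the U1 particle pairs with the 5′ splice site and the U2 particle with the branch point. Snrp proteins build these particles, with the Sm proteins forming a ring around the small nuclear RNA. SF3a and SF3b are the parts of the U2 particle that hold it on the branch point. SR proteins bind exon enhancers and mostly promote the use of nearby splice sites, while hnRNP proteins coat the nascent transcript, often silence exons, and also act on RNA stability and export. Red cell precursors change the splicing of many transcripts as they mature, and mutations of SF3B1 and SRSF2 are frequent in human disorders of blood formation with defective red cell production.

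The arrays of the 2 genotypes differed widely. Array medians ran from 97.7 to 140 in the wild type and from 204 to 218 in the knockout, although each array had been scaled to 1 trimmed mean. Markers of erythroid cells differed as well: the progenitor genes Kit and Myb were 3.32-fold and 4.13-fold lower, and Gata1 was 3.71-fold, the haem synthesis gene Alas2 15.3-fold and the embryonic globin gene Hbb-y 56.3-fold higher in the knockout. Another embryonic globin gene, Hbb-bh1, rose from dim signals of 13.3, 31.6 and 24.7 to 6562, 10451 and 4207. The summed signal of 18 hepatocyte genes ran from 9304 to 10114 on the wild-type arrays and from 137652 to 210352 on the knockout arrays, and all 18 were called higher. The summed signal of 15 lymphoid genes was 30742 to 38034 against 2756 to 3749. Of the 12 lymphoid genes tested 10 were lower and 1 higher, and Rag1 fell to signals of 4.6, 60.2 and 21.0, below the filter. The summed signal of 12 stromal and endothelial genes was 2873 to 3349 against 21165 to 31962, with 9 higher. That of 10 megakaryocyte genes was 9833 to 10054 against 36931 to 48713, with 9 higher. Of 15 macrophage and granulocyte genes tested 7 were higher and 5 lower. The summed signal of all 17 with a probe set of their own was 145973 to 170559 against 94583 to 187754. Of 15 erythroid genes 10 were higher and 4 lower (summed signal 45053 to 47176 against 121812 to 172073). The part of these shifts in the results on splicing factors was not tested. Klf1 itself gave signals of 2508, 2706 and 4029.7 in the wild type and 3505, 1391 and 2545 in the knockout (log2 difference -0.38 ± 0.33, adjusted p = 0.358); whether its probes lie outside the deleted part is not given in the sources used here, so this does not check the labels.

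At the brightest probe set of each gene, 14 of the 45 splicing factor genes tested were lower on the knockout arrays and 1, Hnrnpl, was higher. A gene was called at an adjusted p under 0.05 in the limma fit over all probe sets, and differences are given as log2 of the knockout signal minus log2 of the wild-type signal with their standard error. Over all 12799 genes tested in the same way, 19.7% were called lower and 26.1% higher. Splicing factors are bright on these arrays, with a median signal of 4927 against 573 over all genes, and 44 of the 45 lie in the brightest 25% of probe sets. Signals of different probe sets are not levels on 1 scale and serve here only to find the class of bright genes. Within that class the members were still brighter, with a median signal of 5001 against 1907, so brightness was matched only in part. Among all 4279 genes of that class 32.9% were called lower and 14.1% higher, so the 31.8% of bright members called lower is near the background, while 2.3% were called higher. The median difference of the members was -0.39, against -0.22 over bright genes and 0.14 over all genes. A difference below 0 was seen for 39 of the 45 members (86.7%), for 63.4% of bright genes and for 44.5% of all genes. In bulk RNA, fewer cells that hold a transcript and less of it per cell cannot be told apart.

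**Figure D1:**
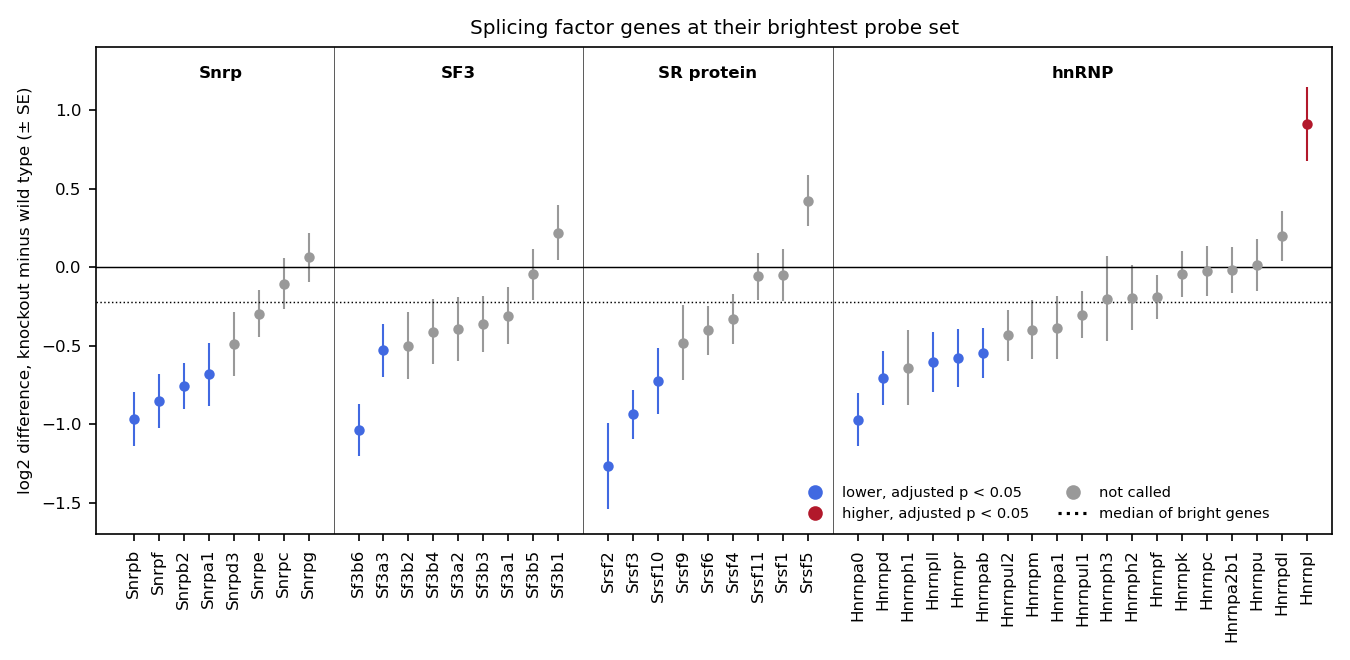
Log2 difference between knockout and wild type (vertical axis, points with standard error, 3 arrays per genotype) of the 45 splicing factor genes tested, each at its brightest probe set, by family. The solid line marks 0 and the dotted line the median of all bright genes, -0.22; 14 genes were called lower (blue), Hnrnpl was called higher (red), and most grey points that were not called also lie below 0.

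The Snrp genes had the lowest median of the families, -0.58 with 4 of 8 called lower, followed by the SR proteins at -0.40 with 3 of 9, SF3 at -0.39 with 2 of 9 and the hnRNP genes at -0.30 with 5 of 19 lower and 1 higher. No test of a difference between families was made. Decreases were moderate: Srsf2 and Sf3b6 fell by more than 2-fold, and the other called decreases lay between 1.44-fold and 1.96-fold. Counted by probe set, 38 of 127 were lower and 9 higher, where 15.7% of all 27023 probe sets tested were called lower and 28.1% higher. In the brightest 25% of probe sets, which holds 103 of the 127, 35.0% of the members' probe sets were lower and 4.9% higher, against 31.5% and 15.6% of all 6756, so the share called lower is near the background here too. The signals of the 3 wild-type and the 3 knockout arrays did not overlap for 20 genes that were lower and 2 that were higher in the knockout, or 44.4% and 4.4%, against 40.6% and 17.9% of bright genes and 25.2% and 34.1% of all genes. The number of lower genes moved with single arrays: 22 were called without knockout 1, 8 without knockout 2, 9 without knockout 3 and 8 without wild type 1. Among probe sets, 18 were lower without wild type 1, 22 without wild type 2, 19 without knockout 2 and 20 without knockout 3. Without knockout 2 and knockout 3, 3 and 4 were higher. Shares over all genes with the same arrays left out are not given here, so these counts are not read as a trait of the members. Knockout 1 had the highest of the 3 knockout signals for 30 of the 45 members (66.7%, against 43.8% of all bright genes) and for 13 of the 14 called lower. The share among all genes called lower is not given here. The number of calls without knockout 1 also rests on fewer arrays, so the part of this array was not isolated, and the reason was not tested.

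Because Eklf binds CACCC boxes, the starts of the members were searched for the letters CACCC on either strand, read as CACCC or GGGTG. RefSeq windows on GRCm38.p6, each 300 bases from 250 before to 50 after a start, were at hand for 42 of the 47 members (58 windows), not for Hnrnpll, Hnrnpul2, Sf3b4, Sf3b5 and Snrpb. CACCC was present in 48.3% of the members' windows, against 63.5% of 13221 windows of genes tested on the arrays and 57.5% of all 32851 windows. Among members it was in 53.8% of the 13 windows of genes called lower and in 48.7% of the 39 of genes not called. The letters GATAA or TTATC, the core of the GATA factor motif, were in 15.5% of the members' windows, 17.3% of those of tested genes and 25.4% of all; a match can share at most 1 base with a CACCC match. The members' windows had a median GC content of 60.7%, close to that of tested genes and above the 52.7% of all windows. The 250 bases before the start are shown for the member with the largest called decrease in each family that has a window, and for the 1 called increase, so that the range of CACCC content can be seen beside the responses described next; capitals mark CACCC or GGGTG.
Snrpf (chr10:93589659-93589908, minus strand): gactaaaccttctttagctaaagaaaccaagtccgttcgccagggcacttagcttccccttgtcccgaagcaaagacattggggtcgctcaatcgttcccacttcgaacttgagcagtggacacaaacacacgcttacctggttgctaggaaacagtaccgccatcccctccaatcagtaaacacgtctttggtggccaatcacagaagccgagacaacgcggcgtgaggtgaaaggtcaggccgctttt
Sf3b6 (chr12:4817358-4817607, plus strand): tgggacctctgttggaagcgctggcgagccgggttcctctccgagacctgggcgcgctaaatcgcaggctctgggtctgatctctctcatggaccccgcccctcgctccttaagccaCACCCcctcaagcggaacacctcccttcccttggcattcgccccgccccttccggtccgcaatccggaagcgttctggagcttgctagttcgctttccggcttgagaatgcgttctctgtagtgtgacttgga
Srsf2 (chr11:116853095-116853344, minus strand): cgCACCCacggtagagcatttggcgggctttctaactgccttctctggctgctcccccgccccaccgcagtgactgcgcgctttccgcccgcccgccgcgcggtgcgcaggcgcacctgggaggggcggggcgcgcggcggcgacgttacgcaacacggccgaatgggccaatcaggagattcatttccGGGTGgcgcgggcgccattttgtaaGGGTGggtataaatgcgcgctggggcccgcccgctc
Hnrnpa0 (chr13:58128557-58128806, minus strand): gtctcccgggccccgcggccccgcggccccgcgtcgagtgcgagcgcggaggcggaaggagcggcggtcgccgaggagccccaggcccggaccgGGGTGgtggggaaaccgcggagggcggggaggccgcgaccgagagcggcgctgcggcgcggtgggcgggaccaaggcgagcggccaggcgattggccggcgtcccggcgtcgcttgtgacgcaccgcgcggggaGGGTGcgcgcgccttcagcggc
Hnrnpl (chr7:28810640-28810889, plus strand): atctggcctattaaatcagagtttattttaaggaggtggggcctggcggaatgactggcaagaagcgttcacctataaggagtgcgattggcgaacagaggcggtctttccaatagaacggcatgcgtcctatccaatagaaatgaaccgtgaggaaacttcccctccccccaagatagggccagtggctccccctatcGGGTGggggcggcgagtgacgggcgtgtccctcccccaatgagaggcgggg
Srsf2 has 3 matches, Hnrnpa0 has 2, Sf3b6 and Hnrnpl have 1 each and Snrpf has none in these bases. So genes that fell range from none to 3, and the gene that rose lies within that range. A match describes the letters of the window only.

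Within the Snrp family, proteins of the Sm ring and of the U2 particle fell, and 4 others were not called. Snrpb, an Sm ring protein, gave signals of 8134, 8717 and 9739.6 on wild-type arrays 1, 2 and 3 and 5329.6, 3775 and 4619.5 on knockout arrays 1, 2 and 3. All 3 knockout signals lay below all wild-type signals, a 1.95-fold decrease (log2 difference -0.96 ± 0.17, adjusted p = 0.00267). Snrpf, another protein of the ring, gave 3873, 3423 and 3837 in the wild type and 2321, 2232 and 1676 in the knockout, again without overlap (log2 -0.85 ± 0.17, adjusted p = 0.00486). The CACCC-free window shown above belongs to this gene. Snrpb2, a protein of the U2 particle, gave 3151, 3338 and 2837 in the wild type and 1791, 1821 and 1897 in the knockout, the tightest knockout group among the called Snrp genes (log2 -0.76 ± 0.15, adjusted p = 0.00388). Its partner in the U2 particle, Snrpa1, also fell, by 1.6-fold (adjusted p = 0.0224), but without knockout 3 its adjusted p was 0.0875, without knockout 2 0.08 and without wild type 1 0.0798. The ring proteins did not move as a unit: Snrpd3 had a difference of -0.49 (adjusted p = 0.0786; 0.0262 without wild type 2), Snrpe -0.30 and Snrpg 0.06. For Snrpe the groups did not overlap, whereas for Snrpg they did. Snrpc, a protein of the U1 particle, had a difference of -0.11 with overlapping groups. The probe set annotated to Snrpn alone was under the filter at signals of 7.0, 30.8 and 18.6 in the wild type and 35.8, 56.9 and 72.4 in the knockout. The brightest probe set listed with both Snrpn and Snurf, left out of the counts, gave 3215, 2919 and 2323 in the wild type and 2694, 1241 and 1927 in the knockout.

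In the SF3 family the small subunit that touches the branch point fell most, while the large scaffold was not called. Sf3b6 gave 4805, 4505 and 5581 on the wild-type arrays and 2828, 2223 and 2229.7 on the knockout arrays. The highest knockout signal was well under the lowest wild-type signal, a 2.05-fold decrease (log2 -1.04 ± 0.17, adjusted p = 0.0016), and its 3 tested probe sets were all called lower. Sf3a3, a subunit of SF3a, gave 2040.2, 1964 and 1867 in the wild type and 1551, 1405 and 1141 in the knockout. Its groups did not overlap (log2 -0.53 ± 0.17, adjusted p = 0.032), but the adjusted p was 0.104 without wild type 1, 0.0854 without wild type 2, 0.0685 without knockout 2 and 0.117 without knockout 3. Sf3b1, the large subunit that clamps the branch helix, gave 7565, 7365 and 6081 in the wild type and 6786, 9535 and 8274 in the knockout, with overlapping groups and a difference of 0.22 ± 0.18 (adjusted p = 0.329). The other SF3a subunits, Sf3a1 and Sf3a2, had differences of -0.31 and -0.39, and Sf3b2, Sf3b3, Sf3b4 and Sf3b5 lay between -0.50 and -0.05. None of these 6 was called and all had overlapping groups. Without knockout 1, Sf3a2, Sf3b2 and Sf3b4 had adjusted p-values of 0.0239, 0.0455 and 0.0145, and without wild type 2 Sf3b2 had 0.0342.

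Among the SR proteins, Srsf2 and Srsf3 had the largest called decreases at the brightest probe set. Srsf2, an exon enhancer binding protein, gave 11106, 12504 and 13650.4 in the wild type and 8298, 3761 and 4375 in the knockout. Knockout 1 stood between the other knockout arrays and the wild type, and the groups did not overlap (2.4-fold lower, log2 -1.27 ± 0.27, adjusted p = 0.0066). This holds for 1 of its 4 tested probe sets: the others had differences of -0.01, 0.16 and 1.32, the last called higher, and with the 4 averaged the gene had 0.05 (adjusted p = 0.813). Srsf3, which also carries messenger RNA out of the nucleus, gave 7852, 7805 and 8128 in the wild type and 4889, 3731 and 3905 in the knockout. The wild-type arrays agree closely and the knockout arrays are all lower (log2 -0.94 ± 0.16, adjusted p = 0.00196). Srsf10, which represses splicing when it loses its phosphates, gave 2166, 2331 and 1861 in the wild type and 1717, 1118 and 1083 in the knockout. Its groups did not overlap (log2 -0.73 ± 0.21, adjusted p = 0.0224), but its adjusted p was between 0.0618 and 0.0869 when wild type 1, wild type 2, knockout 2 or knockout 3 was left out. Srsf5 was the member of this family with the highest difference, with signals of 8323, 10011 and 7276 in the wild type and 11383, 11195 and 11422 in the knockout. Those groups did not overlap either, yet the difference of 0.42 ± 0.16 was not called (adjusted p = 0.061). Srsf4, Srsf6 and Srsf9 had differences from -0.48 to -0.33, and Srsf1 and Srsf11 of -0.05 and -0.06, none of them called. Without knockout 1, Srsf6 and Srsf9 had adjusted p-values of 0.0204 and 0.0457. Srsf12 was under the filter at signals of 0.6, 27.6 and 0.9 in the wild type and 63.4, 41.5 and 100.2 in the knockout.

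The hnRNP genes held 5 of the 14 decreases and the 1 called increase. Hnrnpa0, which binds AU-rich elements of messenger RNA, gave 5797, 5774 and 5605 in the wild type and 3584, 2523 and 2759.9 in the knockout. The wild-type arrays lay within a narrow band and all knockout arrays well below it (1.96-fold lower, log2 -0.97 ± 0.17, adjusted p = 0.00233). Hnrnpd, which promotes decay of transcripts with AU-rich elements, gave 8403, 7798 and 8686 in the wild type and 6348, 4617 and 4486 in the knockout, without overlap (log2 -0.71 ± 0.17, adjusted p = 0.0114). Hnrnpll, known for the exon choice of Ptprc (CD45) in lymphocytes, gave 4377, 4638 and 4311 in the wild type and 3819, 2385 and 2728 in the knockout (log2 -0.61 ± 0.19, adjusted p = 0.0302). Ptprc itself, on the lymphoid marker list, had a mean signal of 6478 in the wild type and 1598 in the knockout. Hnrnpr (1.49-fold) and Hnrnpab (1.46-fold) were also lower, with adjusted p-values of 0.0324 and 0.0224. The calls of Hnrnpll and Hnrnpr were lost when wild type 1, wild type 2, knockout 2 or knockout 3 was left out (adjusted p from 0.0711 to 0.111 and from 0.072 to 0.118). That of Hnrnpab was lost without wild type 1, wild type 2 or knockout 2 (from 0.0583 to 0.0933). When all probe sets of a gene were averaged, also any under the filter, Hnrnpr had a difference of 0.24 (adjusted p = 0.468) and Hnrnpab of -0.43 (0.0795).

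Hnrnpl, which binds CA repeats and acts on the exons of many transcripts, went the other way. Its signals were 1643, 1562 and 2789 in the wild type and 4209, 3394 and 3317 in the knockout. Wild type 3 stood apart from the other wild-type arrays, and all knockout arrays were higher still (1.88-fold, log2 0.91 ± 0.24, adjusted p = 0.0139; 0.0507 without wild type 2). Of the hnRNP genes, 4 had differences closest to 0: Hnrnpa2b1 had a difference of -0.02 ± 0.15, Hnrnpc -0.02 ± 0.16, Hnrnpk -0.04 ± 0.14 and Hnrnpu 0.02 ± 0.17, all with overlapping groups. Each of these 4 gave a mean signal between 10596 and 12294 in both genotypes. Hnrnpk and Hnrnpu each had another probe set called lower (log2 difference -0.75 ± 0.16, adjusted p = 0.00598, and -0.56 ± 0.17, 0.0267). Hnrnph1 had the largest decrease that was not called, at -0.64 ± 0.24 (adjusted p = 0.0539), with wild type 3 at 5144 against 8442 and 9139 on the other wild-type arrays. Without wild type 3 its adjusted p was 0.00515, and without knockout 1 0.0485. Without wild type 3 the related Hnrnph3 had 0.0368, and Hnrnpul2 had 0.0276. Without knockout 1, Hnrnpm and Hnrnpul2 had 0.0295 and 0.0329. With all 6 arrays, Hnrnpa1, Hnrnpf, Hnrnph2, Hnrnph3, Hnrnpm, Hnrnpul1 and Hnrnpul2 had differences from -0.43 to -0.19 and Hnrnpdl of 0.20, and none of these 8 was called.

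**Figure D2:**
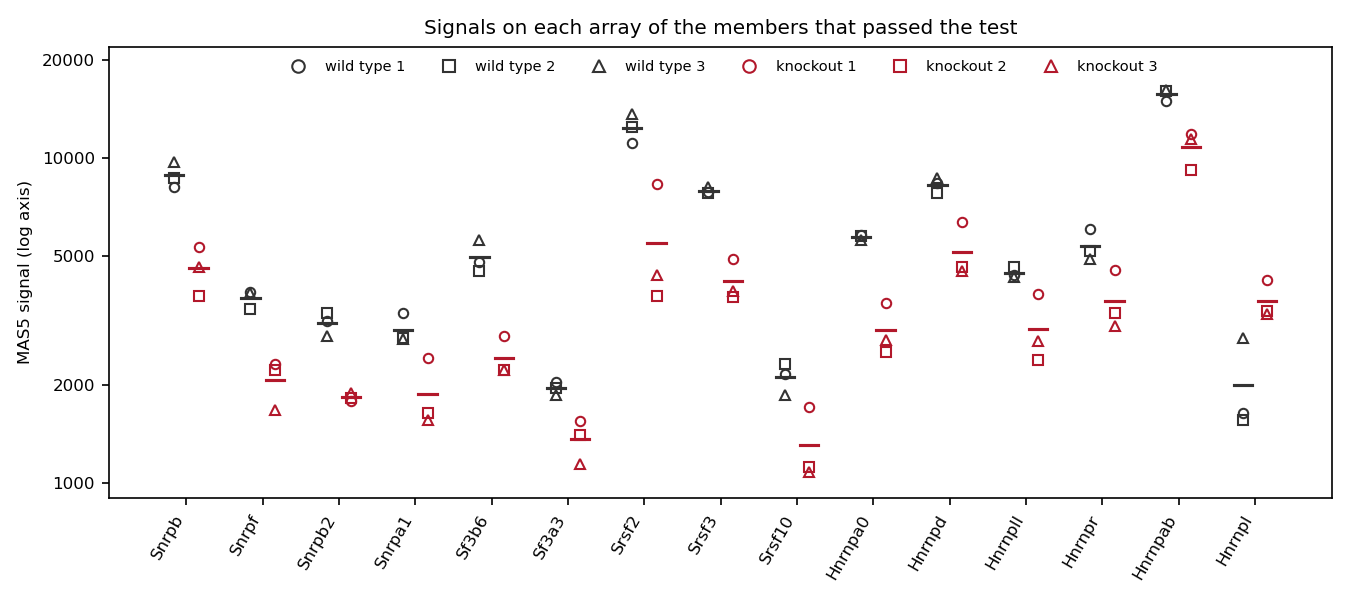
MAS5 signal (vertical log axis) on each of the 6 arrays for the 15 splicing factor genes that passed the test, by family; symbols stand for single arrays, black for wild type and red for knockout, and bars for group means. The groups do not overlap for any of the 15, and knockout 1 (red circle) is the highest knockout array for 13 of the 14 lower genes, Snrpb2 being the other.

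Probe sets of the same gene often differed, which bears on how much a single value per gene can say. Of the 33 members with more than 1 tested probe set, 13 had all their differences below 0, 1 had all above 0 and 19 had some on each side. Such counts over all genes are not given here, so these are not read as a trait of the members. Across the whole table the median difference was -0.196 for the 6756 brightest probe sets tested and 0.904 for the 6755 dimmest. All tested probe sets were called lower for 5 genes, Snrpb, Snrpb2, Sf3b6, Sf3a3 and Hnrnpll. In Srsf3, 5 of 6 probe sets were lower, the brightest as given above, and the sixth had a difference of 0.59 that was not called. Another 6 genes, Srsf1, Srsf6, Hnrnpul2, Hnrnpk, Hnrnpu and Hnrnpdl, were not called at their brightest probe set but had another that was lower. Probe positions within the genes were not used here, so a probe set cannot be assigned to an isoform.

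Hnrnpdl (a relative of Hnrnpd), Srsf2 and Hnrnpu had probe sets called in opposite directions. The brightest Hnrnpdl probe set was not called, 2 others were higher and 3 were lower. The brighter of the higher ones gave 2841, 2871 and 1476 in the wild type and 4672, 7204 and 5449 in the knockout, all knockout arrays lying above the wild type (log2 1.31 ± 0.28, adjusted p = 0.00595). The other higher one rose by a like amount (log2 1.32 ± 0.34, adjusted p = 0.0145). By contrast, the probe set with the largest decrease gave 2476, 2149 and 1571 in the wild type and 1245, 559 and 644 in the knockout (log2 -1.41 ± 0.31, adjusted p = 0.00684). Another lower probe set had a difference of -1.23 ± 0.31 and the remaining one of -0.83 ± 0.27. The 2 larger decreases were called in 17 of 17 alternative analyses, and the increases in 16 and 15, while the remaining decrease was called in 10. All 5 kept their sign throughout. Up and down signals of this gene were therefore seen side by side on the same 6 arrays.

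Hnrnpu, a nuclear scaffold protein, had 1 probe set with signals of 9418, 9562 and 7088 in the wild type and 6472, 5663 and 5427 in the knockout (log2 -0.56 ± 0.17, adjusted p = 0.0267). A dimmer one gave 1152, 1117 and 647 in the wild type and 1808, 1537 and 1444 in the knockout (log2 0.76 ± 0.24, adjusted p = 0.0321). These calls were made in 10 and 12 of the 17 alternatives, and after median centring the second had a difference of -0.06. In Srsf2 the bright probe set fell as given above, 2 of intermediate signal had differences of -0.01 and 0.16, and the dimmest gave 475, 155 and 182 in the wild type and 382, 634 and 860.1 in the knockout. The groups overlapped for that dim probe set, its increase (log2 1.32 ± 0.46, adjusted p = 0.0419) was called in 7 of 17 alternatives, and the decrease of the bright one in all 17.

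Sf3b2, Sf3b3 and Snrpd3 also had higher probe sets beside a brightest one that was not called. In Sf3b2, 2 of 7 were higher, by 0.66 ± 0.19 and 1.80 ± 0.35; the second was dim, with signals of 114, 187 and 113 in the wild type and 319.8, 601 and 532 in the knockout. Sf3b3 had 1 at 0.82 ± 0.28 and Snrpd3 1 at 1.18 ± 0.32. Of the 9 higher probe sets of the members, 4 lay outside the brightest 25%, and 1, that of Hnrnpl, was the brightest of its gene. Dim signals were higher across the whole table: 36.4% of the 6755 probe sets in the dimmest 25% were called higher.

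**Figure D3:**
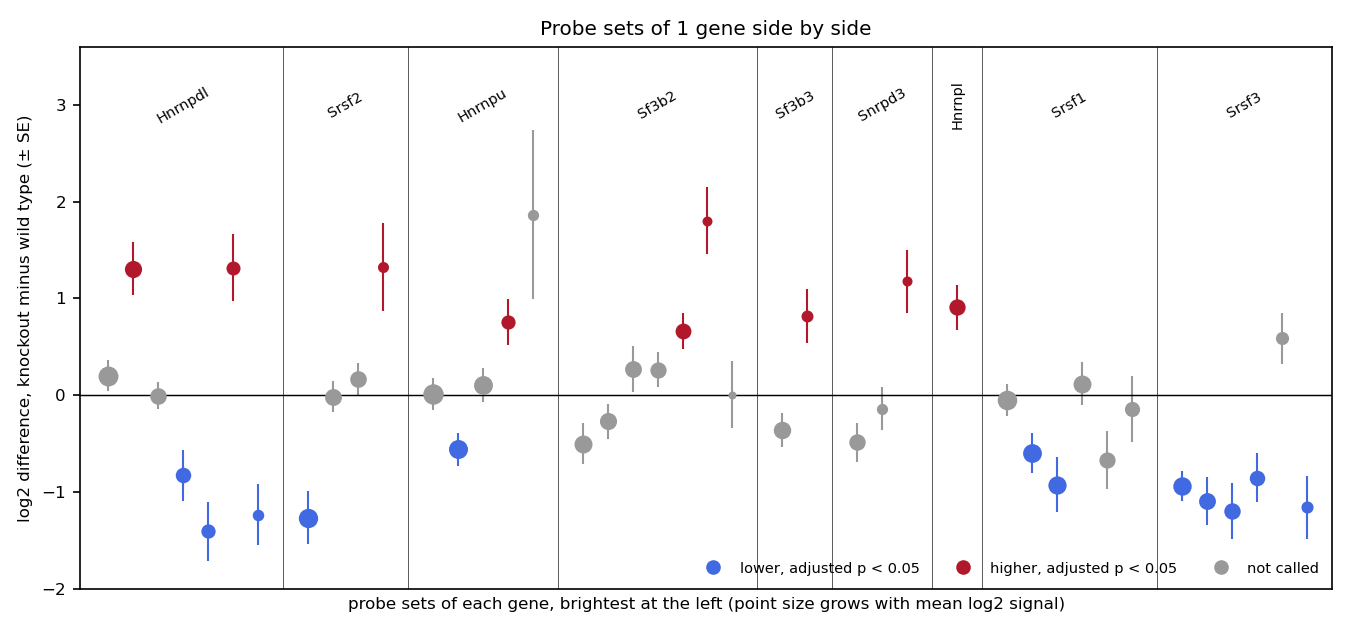
Log2 difference (vertical axis, points with standard error, 3 arrays per genotype) of every tested probe set of the 7 genes with a probe set called higher, and of Srsf1 and Srsf3 for comparison, brightest at the left within each gene; larger points are brighter. Hnrnpdl, Srsf2 and Hnrnpu each hold called increases (red) and called decreases (blue), and in Srsf3 5 of 6 probe sets were lower.

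How the arrays were brought to 1 scale changed how many members, and how many genes in all, were called. With quantile normalization 9 genes were lower and 1 higher, and with cyclic loess 7 and 2, with member medians of -0.20 and -0.16 against -0.02 and 0.00 over all genes. With quantile normalization 20.1% of all genes and 24.9% of bright genes were lower and 16.2% and 18.3% higher, and with loess 19.5% and 22.9% were lower and 16.7% and 19.9% higher. With every array centred on its median, the median of all genes moved from 0.14 to -0.68 and that of the members from -0.39 to -1.21, and 41 genes were lower and none higher. That setting called 46.1% of all genes and 69.1% of bright genes lower and 7.77% and 3.41% higher. By probe set the lower and higher calls were 38 and 9 on the deposited scale, 24 and 9 with quantile normalization, 20 and 8 with loess, and 96 and 1 with median centring. Of all 27023 probe sets tested, 4742 were lower and 4157 higher with quantile normalization, and 4655 and 4267 with loess. For median centring these counts were 10273 and 2101. The calls of Snrpa1, Sf3a3, Srsf10, Hnrnpll and Hnrnpr were lost with quantile normalization (adjusted p from 0.0761 to 0.178), and these and the calls of Hnrnpd and Hnrnpab were lost with loess (from 0.0533 to 0.186). Without a variance trend Snrpa1, Sf3a3, Srsf10, Hnrnpll, Hnrnpr and Hnrnpab had adjusted p-values from 0.051 to 0.0772. Median centring lowered every difference by the same amount and kept all 4243 probe sets called lower on the deposited scale. It therefore gave no test of decreases, here or among the alternative analyses. The 7 genes called lower under all 4 scalings were Snrpb, Snrpf, Snrpb2, Sf3b6, Srsf2, Srsf3 and Hnrnpa0. Of these, Snrpb, Snrpf, Sf3b6, Srsf3 and Hnrnpa0 were called lower in all 20 alternative analyses. Snrpb2 and Srsf2 lost their call in 1 of them, in which all probe sets of a gene were averaged, also any under the filter. Snrpb2 then had a difference of -0.33 (adjusted p = 0.235) and Srsf2 of 0.05 (0.813). The Snrpb2 average took in 1 probe set under the filter, with signals of 17.2, 7.2 and 7.3 in the wild type and 15.6, 14.8 and 11.2 in the knockout. The 2 tested probe sets of Snrpb2 were both called lower. Hnrnpl was higher on the deposited scale, with quantile normalization and with loess, but had a difference of 0.09 (adjusted p = 0.843) after median centring. Srsf5 was called higher with loess (0.63, adjusted p = 0.0212).

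**Figure D4:**
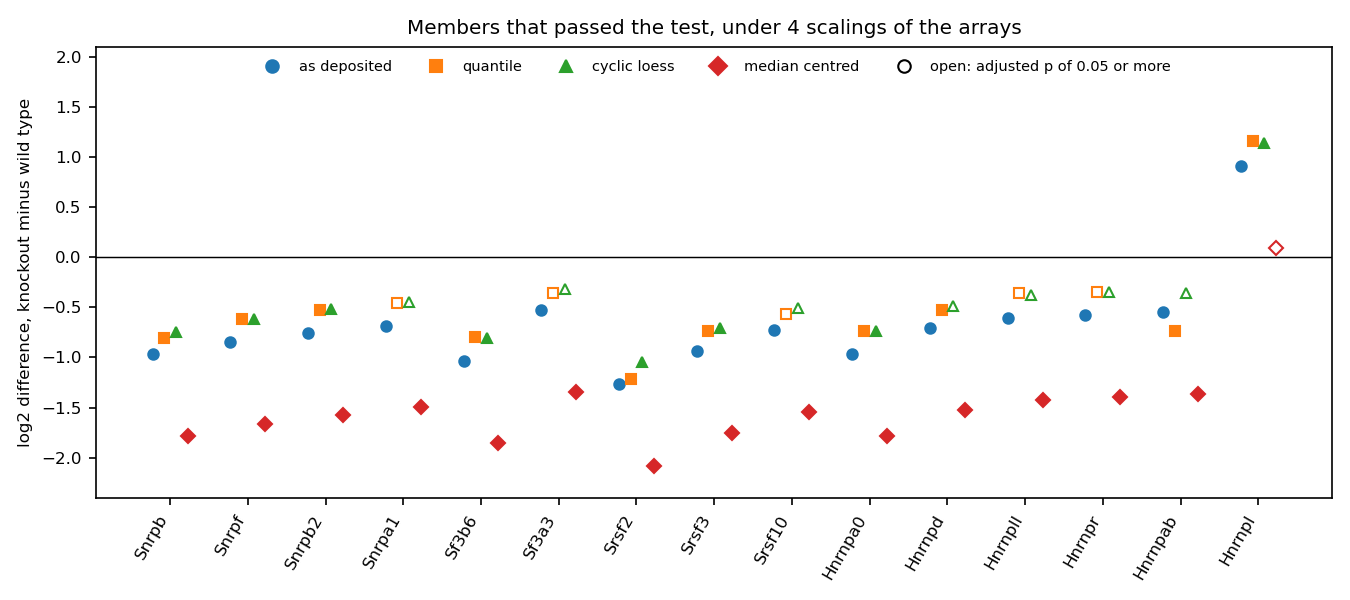
Log2 difference of the 15 called splicing factor genes (vertical axis) under 4 scalings of the same 6 arrays; filled symbols passed an adjusted p of 0.05 and open symbols did not. Median centring (red diamonds) lies lowest for every gene, and Hnrnpl (right) then lies at 0.09.

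Other genes of the splicing machinery were counted from 8 lists, 131 of 148 genes tested, and 40 were lower and 15 higher with a median difference of -0.17. That is 30.5% lower and 11.5% higher, near the shares of all bright genes given above, against 19.7% and 26.1% of all genes. Only 105 of the 131 (80.2%) were themselves bright, so the sets are not fully alike. With quantile normalization the counts were 25 and 17, with loess 22 and 17, and with median centring 85 and 3. Without knockout 2 or knockout 3 they were 25 and 8 each. Without wild type 1, 26 were lower, and without wild type 2, 9 were higher, again with no share over all genes beside them. Among other proteins of the U1, U4/U6.U5 and minor particles 6 of 19 were lower and 3 higher. Usp39, needed to join the U4/U6.U5 particle to the spliceosome, fell (log2 difference -1.08, adjusted p = 0.000872), and Prpf6, a bridge within that particle, had the largest increase of this list, with signals of 1666, 1971 and 2148 in the wild type and 4647, 6499 and 6164 in the knockout (log2 1.57 ± 0.18, adjusted p = 0.00029). The other 2 higher ones were Snrnp25 (0.75) and the U1 protein Snrnp70 (0.48), named after their values were seen; values given alone in parentheses are log2 differences. A nuclear ring of Lsm proteins binds U6 RNA, and a separate cytoplasmic ring, which holds Lsm1, takes part in mRNA decay. Of 7 Lsm genes tested, Lsm1 (-1.26), Lsm6 (-1.03) and Lsm3 (-0.89) were lower and Lsm7 was higher (1.36). Lsm3 and Lsm6 were named after their values were seen.

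Of 13 branch point and 3′ splice site factors 6 were lower and none higher, led by Puf60 (-0.94, adjusted p = 0.00931), which helps U2 bind. When all probe sets of a gene were averaged, also any under the filter, Puf60 had a difference of 0.00 and Lsm1 of -0.24. Of 26 genes of the Prp19 complex, catalytic helicases and second step factors 5 were lower and none higher: Prpf19, the ubiquitin ligase of the complex, at -0.80, and, named after their values were seen, Dhx38, Cwc15, Cdc40 and Aqr, from -0.68 to -0.50. The exon junction complex marks spliced junctions, and its list here also holds RNA decay factors such as Upf1. Of the 8 genes tested on this list 2 were lower, Rnps1 (1.99-fold) and Upf1 (1.76-fold), and Acin1 was higher (1.43-fold). Upf1 was named after its value was seen. The adjusted p of Acin1 was 0.0666 without a variance trend and 0.147 with averaged probe sets. Without wild type 1, wild type 2 or knockout 2 it was from 0.0739 to 0.0937.

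The enzymes that act on the SR and Sm proteins moved in both directions. Of 9 kinases and import factors of SR proteins 3 were lower and 3 higher. Srpk2, an SR protein kinase, gave 1508, 1656 and 813 in the wild type and 340.0, 624 and 429.8 in the knockout (log2 -1.49 ± 0.32, adjusted p = 0.00628), and the related Srpk1 also fell, with a difference of -1.21. Srpk3, the kinase known from muscle, rose from dim signals of 136, 214 and 102 to 426, 437 and 683 (log2 1.81 ± 0.35, adjusted p = 0.00391). The nuclear kinases Clk1 (1.17) and Clk3 (0.74) were higher and the import factor Tnpo3 (-0.56) lower, these and Srpk1 being named after their values were seen. In the SMN complex and Sm methylation list, which loads Sm rings onto RNA, 5 of 13 were lower. Wdr77, the partner of the methyltransferase Prmt5, gave 3734, 3128 and 4122 in the wild type and 1544, 1619.5 and 1761 in the knockout (log2 -1.15 ± 0.16, adjusted p = 0.000809). Prmt5 (-0.79), Clns1a (-0.76), Coil (-0.94) and Strap (-0.39), named after their values were seen, were the others, and Snupn, which imports assembled particles, was higher (0.54, adjusted p = 0.0411). Snupn lost its call with quantile normalization (0.0956), loess (0.0906), no filter (0.052), no variance trend (0.0541), the replicate block (0.0694) and averaged probe sets (0.0946), and without wild type 1, wild type 2, knockout 2 or knockout 3 (from 0.0951 to 0.122).

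Of 36 other splicing regulators 10 were lower and 6 higher, and they held the largest decrease of any splicing gene listed here. Khdrbs1 (Sam68), an RNA binding protein regulated by signalling kinases, gave 5769, 5850.1 and 5722 in the wild type and 1772, 1019.6 and 1526 in the knockout, a 4.12-fold decrease (log2 -2.04 ± 0.21, adjusted p = 0.000148). Tial1, which binds U-rich sequence beside splice sites, gave 2499.8, 2312 and 1740.2 in the wild type and 5153, 6736 and 5856 in the knockout, a 2.72-fold increase (log2 1.45 ± 0.19, adjusted p = 0.000502). Celf2 and Mbnl3 also fell, with differences of -1.98 and -1.51, and Mbnl1, Rbfox2 and Rbm38 rose, with differences of 0.92, 0.91 and 0.69; these 5 were named after their values were seen. After median centring, 12 of the 15 increases lost their call: Snrnp25, Snrnp70, Acin1, Snupn, Clk3, Rbm38 and, named after their values were seen, Luc7l and Son had differences from -0.34 to -0.07, and Mbnl1, Rbfox2, Clk1 and Lsm7 had 0.10, 0.09, 0.35 and 0.54. Prpf6, Srpk3 and Tial1 were still called higher. None of the 15 member genes that were called had a difference as large as those of Khdrbs1, Celf2, Prpf6, Mbnl3, Srpk2, Srpk3 or Tial1.

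**Figure D5:**
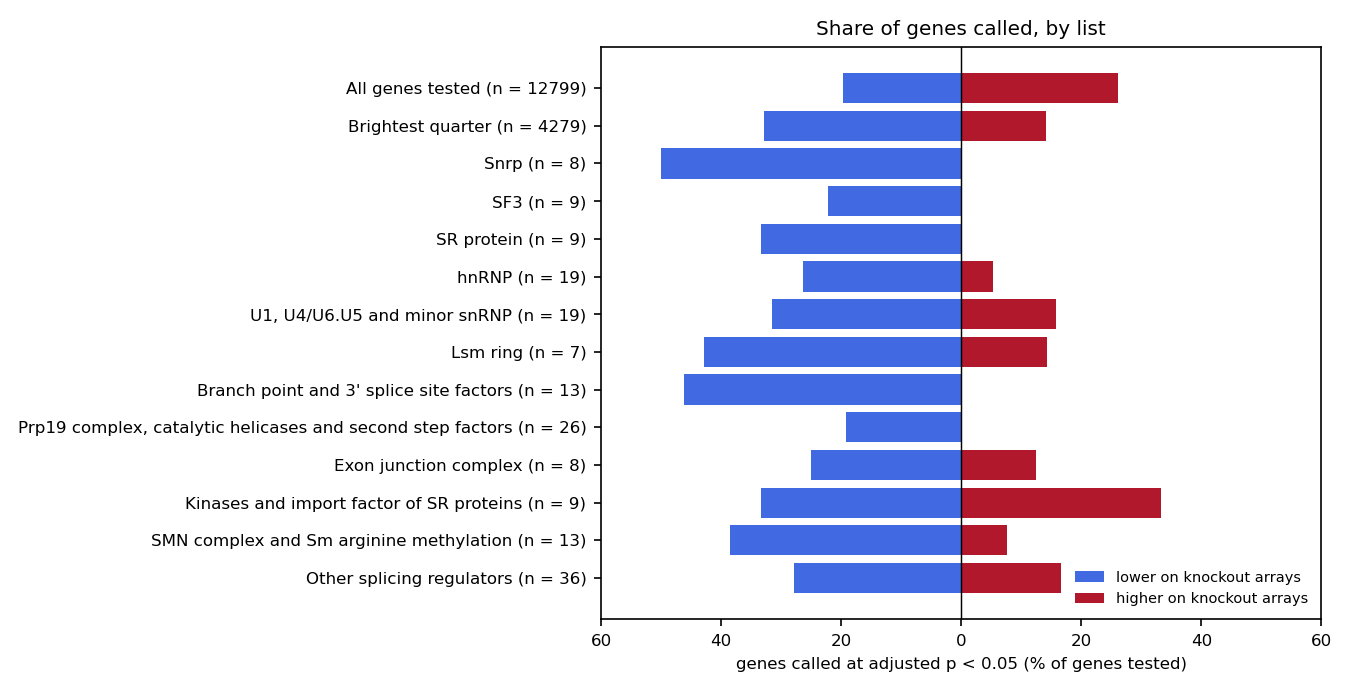
Share of genes called lower (blue, left) and higher (red, right) at an adjusted p under 0.05, as a percentage of the genes tested, for all genes, bright genes (in the brightest 25% of probe sets), the 4 splicing factor families and the 8 other lists. Lists of 7 to 36 genes are set beside 32.9% lower and 14.1% higher among bright genes. Of the 8 other lists, 61.5% to 92.3% of the genes tested were bright. No test of a list was made.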

How the data were processed

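Per the submitters' processing notes, the authors made the deposited intensity values, linear MAS5 signals, with MAS5 and Affymetrix Expression Console (no version is given there). In the deposited table each array's mean without the top and bottom 2% is 500. All 45101 probe sets were read. Signals under 1 (303 values) were set to 1, log2 was taken, and no scaling was added. The annotation listed 34958 probe sets with 1 gene, 932 with several and 9211 not at all. Symbols matched RefSeq for all members. The 64 control probe sets were left out, as were probe sets averaging below the 40th percentile of log2 signal (6.62, or 98.6 before log2).

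The test was limma's moderated linear model (version 3.58.1, R 4.3.3, two-sided, with a variance trend) on 27023 probe sets, with Benjamini-Hochberg adjustment over all of them, and the procedure was tested on simulated data. Each gene is represented by the brightest of its probe sets. Only 3 arrays per group limit the precision. Every member may be named; outside the families, the rule names the called gene with the largest change in each direction of each list, and exceptions are marked. Arrays given for single genes are the 3 largest called changes of a family in each direction and genes called both ways. The members and all lists were chosen with earlier results of these data known. Alternatives varied scaling, offset, filter, variance model, weights, replicate block, probe set rule, threshold and each array; cyclic loess was added after the data were seen.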

Additional observations from a re-analysis of the deposited data

How the results depend on the processing

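Scaling, the variance model, the threshold and single arrays moved counts of calls by over 1.5 times; the offsets, the robust prior and the stricter filter left every count of calls within 1.5 times its value. In the order of member probe sets higher, member probe sets lower, member genes higher, member genes lower, other pathway genes higher and other pathway genes lower, the reported counts were 9, 38, 1, 14, 15 and 40. Median centring gave 1, 96, 0, 41, 3 and 85. Without a variance trend they were 5, 23, 1, 8, 8 and 26, and at an adjusted p under 0.01 they were 2, 12, 0, 7, 5 and 20. Quantile normalization gave 24 lower probe sets, 9 lower member genes and 25 lower pathway genes, and cyclic loess, chosen after seeing the data, gave 20, 7 and 22, with 2 higher member genes. There were also 2 higher member genes with no intensity filter and with array weights. Leaving out single arrays gave 3 to 10, 18 to 52, 0 to 1, 8 to 22, 8 to 17 and 25 to 42. Shares over all genes were given above for the main analysis and the scalings only.

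The replicate numbers were not taken to pair the samples, since same-numbered arrays correlated at 0.042, 0.054 and 0.076 in their deviations from the group means, although each array correlated best with its own number. With the replicate number as a block, 14 member probe sets were higher, 39 lower, and 15 member genes lower.

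Among the member genes and the other genes named by the rule, a called difference changed sign, or a difference that was not called turned into a call of the other sign, in these cases: after median centring Hnrnpu had -0.80 (adjusted p = 0.0209), Snrpg -0.75 (0.0402), Acin1 -0.30 and Snupn -0.28. With the mean of all probe sets of a gene Srsf2 had 0.051 and Hnrnpr 0.24. Other called increases that turned negative after median centring, none called, were those of Snrnp70 (-0.34), Son (-0.22), Rbm38 (-0.12), Luc7l (-0.12), Clk3 (-0.08) and Snrnp25 (-0.07). For Srsf2 and Hnrnpr the average takes in dimmer probe sets with differences above 0. For the others, median centring lowered every difference on the arrays by the same amount, with the median of all genes at -0.68. Sign changes that passed in neither analysis were not counted, and cyclic loess had the most, 9 of 45 member genes, as did the mean of probe sets. Srsf3, Sf3b6, Hnrnpa0, Snrpf and Snrpb lost their call in none of 20 alternatives.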

Other observations

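The 16 probe sets that list a member gene together with other genes were kept out of all counts, since their signal cannot be assigned to 1 gene. The one listed with Snrpd1 gave signals of 3613, 3118 and 3678 in the wild type and 3085, 2516 and 2279 in the knockout. That listed with Snrpa gave 2739, 2542 and 3202 in the wild type and 2422, 1823 and 2096 in the knockout. The knockout signals lay below the wild-type signals in both. The Snrpd2 probe set gave 6842, 5886 and 8095 in the wild type and 6258, 5682 and 5884 in the knockout, with overlap. Of 3 probe sets listed with Hnrnpa1 and its pseudogenes, 1 gave 6009.8, 5015 and 5277 in the wild type and 4517, 3833 and 3414 in the knockout, all lower, and another 5396, 5068 and 5082 in the wild type and 5651, 5717 and 5061 in the knockout. The brightest of 4 probe sets listed with Hnrnpa3 gave 10034, 8904 and 7647 in the wild type and 8078, 6770.3 and 6977 in the knockout, again with overlap. Snrpn shares a transcript with Snurf, and the brightest of their 6 joint probe sets gave 3215, 2919 and 2323 in the wild type and 2694, 1241 and 1927 in the knockout. No test was made on these.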
